A study of Mus musculus with 30 samples.

Results

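Potassium channel genes were examined in astrocytes sorted from injured and control mouse brains. The set was every annotated gene whose symbol starts with Kcn, apart from Kcnj10 and Kcnj16, the main inward rectifiers of astrocytes. There were 82 such genes among 18193 annotated on the array, and each was read from its probe set with the highest mean over all 30 arrays. A filter that asked for a log2 intensity of at least 5 on at least 3 arrays kept 71 of them, among 15726 genes kept in all. The 11 set aside for low signal were Kcna5, Kcne3, Kcng1, Kcnh5, Kcnj1, Kcnj15, Kcnj2, Kcnk15, Kcnmb4os1, Kcns1 and Kcnv2. The 71 comprised 20 pore-forming and 6 modifier subunits of voltage-gated channels, 11 accessory subunits of those channels and 10 inward rectifier subunits. They also held 11 K2P leak channel subunits and 11 genes from the families of calcium- and sodium-activated channels, in which Kcnu1 was placed by family alone. The remaining genes, Kcnq1ot1 and Kcnmb4os2, are noncoding transcripts that share the prefix without encoding a subunit.

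All groups came from young adult male mice of the Tg(Aldh1l1-eGFP) OFC789Gsat line on a Swiss Webster background, in which the Aldh1l1 promoter drives green fluorescent protein in astrocytes, and the cells were sorted for that protein after papain dissociation. The stroke model closed the middle cerebral artery (occlusion, MCAO) for 1 hour and was followed by reperfusion, with sham surgery as control, and cells were collected after 1 day (5 MCAO and 4 sham arrays), 3 days (3 and 3) or 7 days (3 and 3). Systemic inflammation was induced with lipopolysaccharide (LPS), a bacterial wall component, given at 5 mg/kg into the peritoneum, with endotoxin-free saline as control, and cells were collected after 1 day (5 LPS and 4 saline arrays). RNA was amplified over successive cycles, labelled and hybridised to an Affymetrix expression array. Arrays are labelled as biological replicates with no word on whether each is a separate mouse, so p-values measure only the spread between these samples.

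Potassium channels let potassium leave or enter the cell along its gradient. In astrocytes, inward rectifier and K2P channels carry the large resting conductance that keeps the membrane very negative and helps to clear potassium released by neurons. Voltage-gated channels open on depolarisation and are assembled from pore-forming subunits with accessory proteins that set their gating and their delivery to the membrane. Channels of the Kcnn family open when calcium rises inside the cell.

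Astrocyte markers were read in each group. All 11 listed markers were measured, and the group means of Aldh1l1 lay between 12.38 and 12.78 on the log2 intensity scale. The promoter of Aldh1l1 drove the sorted protein, so these values do not measure purity. Group means of oligodendrocyte markers ran from 4.92 for Mog to 13.57 for Cnp. Median intensity on the linear scale was 68 to 73 on 29 arrays and 94 on LPS array 5, whose median correlation with its own group was 0.8438. The arrays also fell into sets by their highest intensity, above or below 30000. All arrays of the 1-day surgery groups lay above it and all 7-day arrays below it, while the LPS, saline and 3-day groups held both kinds. In sorted bulk samples, fewer cells of a type and less RNA per cell cannot be told apart.

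The probe sets with the brightest signal over the 14 control arrays were those of Kcna2, Kcnc4, Kcnd2, Kcnd3, Kcnip3, Kcnk1, Kcnk2, Kcnn1, Kcnn2 and Kcnq3. Their mean log2 intensities there ran from 8.21 for Kcnn1 to 12.20 for Kcnk1. Brightness depends on the probes as well as on abundance, so no order of expression is drawn from it. Of the 71 genes, 10 had a mean of at least 8 over all 30 arrays, 35 lay between 6 and 8, and 26 lay under 6.

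One day after stroke, 10 of the 71 genes fell and 0 rose. Those that fell were the K2P leak channels Kcnk1 and Kcnk2, the calcium-activated channel Kcnn2, the inward rectifier Kcnj14, the voltage-gated pore subunits Kcna2, Kcnc4, Kcnd2 and Kcnq3, the modifier subunit Kcng4 and the accessory subunit Kcnip2. The falls ran from 1.69-fold for Kcnq3 to 3.54-fold for Kcnk1. A gene was called when its limma p, adjusted by Benjamini-Hochberg across the 15726 genes, was under 0.05, and the variance was pooled over the 8 groups. Of all genes, 12.7% were called in this comparison, 6.17% as lower and 6.49% as higher, against 14.1% of the Kcn genes, all lower. At an unadjusted p under 0.05 the share was 23.3% of all genes and 16 of the 71. The median log2 fold was -0.14 over the 71 genes, 53 of them below 0, and -0.05 over all genes.

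The called genes were not evenly spread over signal levels. All 4 genes with a mean log2 of at least 10 fell, as did 3 of 6 between 8 and 10, 3 of 35 between 6 and 8, and 0 of 26 under 6. Brighter genes were called lower more often across the array as well, in 13.3%, 8.27%, 3.66% and 0.61% of all genes in the same bands. Among genes with a mean of at least 8, a limit chosen after seeing the data, 7 of 10 Kcn genes and 10.3% of all genes were called lower. The arrays of MCAO and sham did not overlap for 17 of the 71 genes, 14 of them lower, against 27.3% and 15.2% of all genes.

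**Figure D1:**
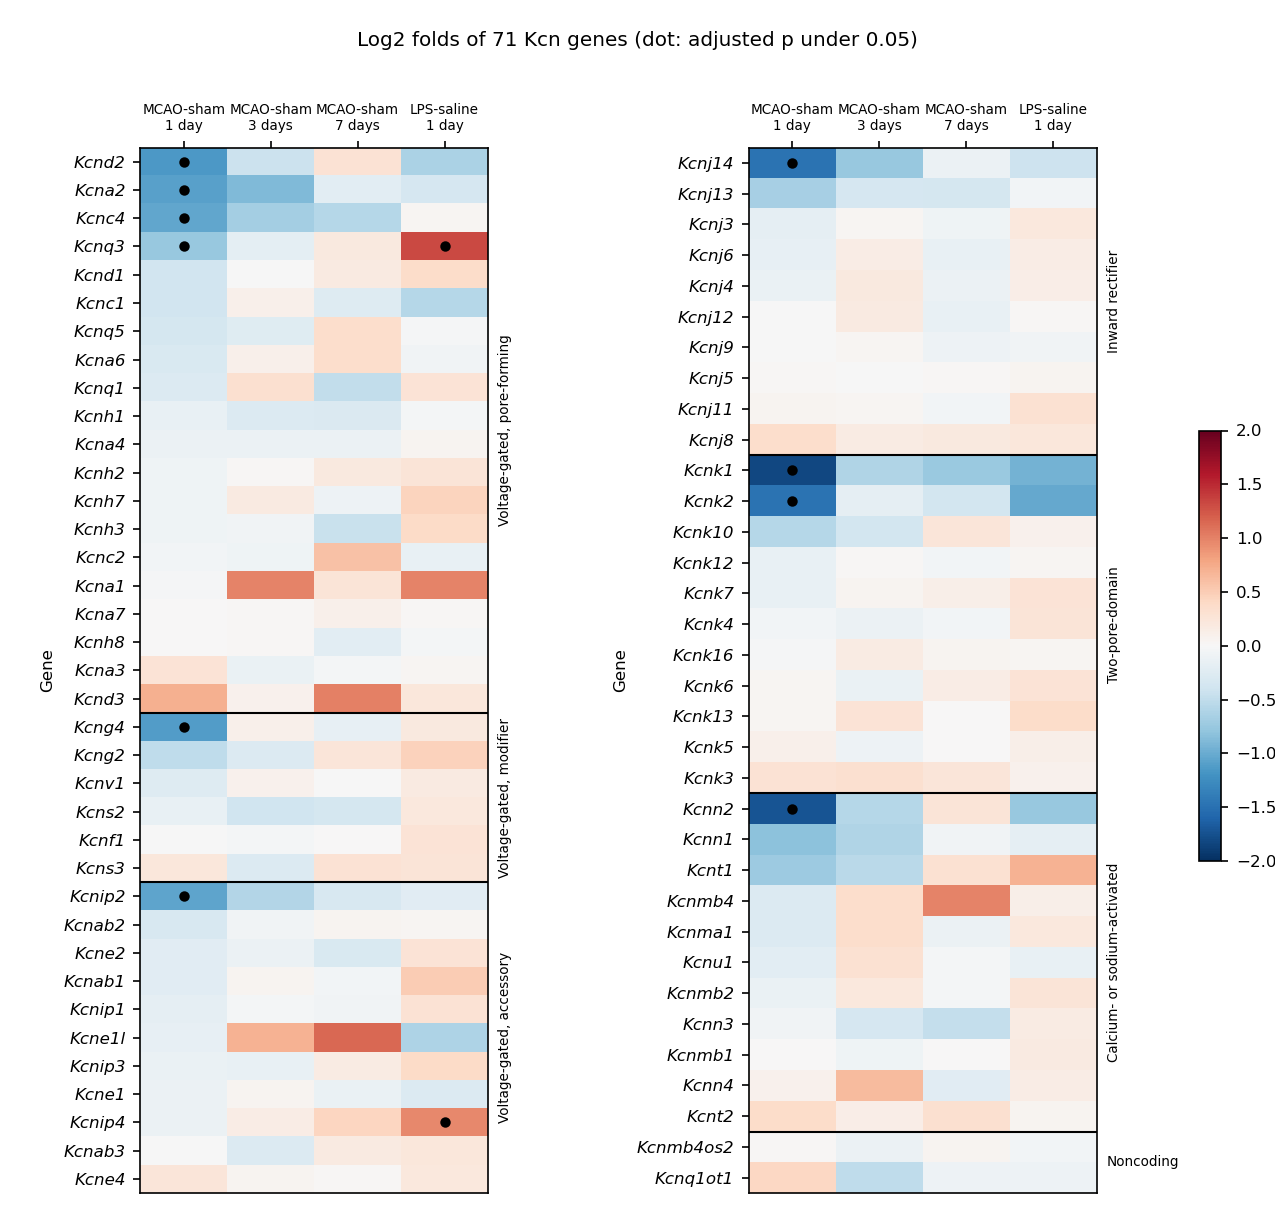
Log2 folds of the 71 genes in each comparison with a control, by family, with blue for lower and red for higher after injury and a dot where the adjusted p was under 0.05. The dots lie in the first column for 10 genes, all blue, and in the last column for Kcnq3 and Kcnip4, both red.

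Promoters of the genes that fell together are shown for reference. RefSeq windows of the GRCm38.p6 build were at hand for 7 of the 10, and the 250 bases before an annotated start are printed for 4 of these, as examples of windows with and without a shared short motif. Kcnd2 lies at chr6:21215096-21215345 on the + strand and Kcnip2 at chr19:45816064-45816313 on the - strand. Kcna2 lies at chr3:107101317-107101566 and Kcnk1 at chr8:125994852-125995101, both on the + strand. Capitals mark the GC box GGGCGG, searched on both strands and read 5′ to 3′.
Kcnd2: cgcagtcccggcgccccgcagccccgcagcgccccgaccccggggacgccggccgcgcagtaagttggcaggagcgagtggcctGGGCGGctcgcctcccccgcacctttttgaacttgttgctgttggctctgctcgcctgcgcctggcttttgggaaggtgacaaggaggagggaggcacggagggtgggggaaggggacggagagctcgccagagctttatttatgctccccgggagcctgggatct
Kcnip2: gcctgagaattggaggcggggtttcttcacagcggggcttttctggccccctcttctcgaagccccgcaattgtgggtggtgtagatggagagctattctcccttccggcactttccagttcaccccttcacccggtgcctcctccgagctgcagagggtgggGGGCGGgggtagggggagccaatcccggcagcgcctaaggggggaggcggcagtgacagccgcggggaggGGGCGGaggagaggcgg
Kcna2: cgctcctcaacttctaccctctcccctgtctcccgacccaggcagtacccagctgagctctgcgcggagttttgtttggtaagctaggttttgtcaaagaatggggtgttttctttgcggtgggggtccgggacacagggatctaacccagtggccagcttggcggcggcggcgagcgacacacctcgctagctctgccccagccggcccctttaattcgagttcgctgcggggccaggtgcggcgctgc
Kcnk1: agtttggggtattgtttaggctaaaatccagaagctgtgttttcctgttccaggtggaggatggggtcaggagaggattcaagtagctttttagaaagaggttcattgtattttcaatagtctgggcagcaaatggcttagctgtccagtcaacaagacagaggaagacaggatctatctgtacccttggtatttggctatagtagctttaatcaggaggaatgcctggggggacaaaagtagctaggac

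A GC box was found in at least 1 window of 4 of the 7 genes that fell and of 32 of 54 Kcn genes with an entry. Counted by window and not by gene, it was found in 32.7% of 32851 promoter windows of the same length. The AP-1 motif TGANTCA was found for 1 of the 7, Kcnk2, in a single window of several, and in 6.75% of all windows. The STAT element TTCNNNGAA and the cyclic AMP response element TGACGTCA were found for 0 of the 7, and in 7.02% and 1.55% of all windows. Matches of different motifs were counted separately, overlapping or not, and a gene with several starts counts once if any window holds the motif. Such a gene has more chances of a match than a single window, so counts of genes cannot be compared with shares of windows. A match or its absence describes these letters alone.

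The largest log2 fold was that of Kcnk1, which encodes a K2P subunit that contributes to the passive conductance of astrocytes. Its log2 intensity was 9.59, 9.20, 9.89, 11.73 and 10.32 on MCAO arrays 1 to 5 and 11.60, 11.35, 11.43 and 13.49 on sham arrays 1 to 4. MCAO array 4 was higher than sham arrays 1 to 3, so the groups overlapped. The log2 fold was -1.82 ± 0.55 (SE, adjusted p = 0.0267 by limma). Kcnk2 encodes a K2P channel opened by membrane stretch and by polyunsaturated fatty acids. Its values were 9.52, 9.33, 10.56, 10.14 and 10.57 after MCAO and 11.55, 11.67, 11.04 and 11.71 after sham surgery. Every MCAO array was lower than every sham array, with a log2 fold of -1.47 ± 0.31 (SE, adjusted p = 0.00187). The other 9 K2P genes were not called, when 12.7% of all genes were called.

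Kcnn2 encodes a small-conductance channel opened by calcium. It measured 9.11, 9.99, 10.20, 8.87 and 10.22 after MCAO and 11.62, 11.54, 11.30 and 11.18 after sham surgery. The groups did not overlap, and the log2 fold was -1.73 ± 0.32 (SE, adjusted p = 0.000513). Its relative Kcnn1, also without overlap, had a log2 fold of -0.83 ± 0.34 (SE) that was not called (adjusted p = 0.115). Of the 11 genes in the families of calcium- and sodium-activated channels, 1 fell and 0 rose on the probe sets used. Of all genes, 6.17% were called lower and 6.49% higher.

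Kcnj14 was the only one of the 10 inward rectifier genes to be called, when 12.7% of all genes were called. It measured 5.75, 5.55, 6.44, 5.00 and 5.55 after MCAO and 7.61, 7.24, 6.34 and 7.38 after sham surgery. Sham array 3 lay below MCAO array 3, and the other arrays were apart. The log2 fold was -1.48 ± 0.39 (SE, adjusted p = 0.0113). The median log2 fold of the 10 inward rectifier genes was -0.07.

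Among voltage-gated channels, Kcna2, Kcnc4 and Kcnd2 fell without overlap. Kcna2 encodes a delayed rectifier subunit and measured 10.32, 10.86, 10.34, 10.38 and 10.58 after MCAO against 11.44, 11.68, 11.55 and 11.65 after sham surgery. The log2 fold was -1.09 ± 0.29 (SE, adjusted p = 0.0124). Kcnc4, a subunit of fast, high-threshold channels, measured 8.72, 9.09, 8.66, 8.66 and 8.79 against 10.33, 9.73, 9.26 and 9.95. Its log2 fold was -1.03 ± 0.30 (SE, adjusted p = 0.0211), and the suffix of its probe set marks probes shared by several transcripts.

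Kcnip2 is a calcium-binding accessory subunit of the A-type channels whose pore Kcnd2 and Kcnd3 encode. Kcnip2 measured 6.78, 6.94, 7.43, 7.43 and 7.50 after MCAO and 8.29, 8.15, 8.27 and 8.35 after sham surgery. The highest MCAO array lay well below the lowest sham array, and its log2 fold of -1.05 ± 0.17 (SE) had the smallest adjusted p of the 71 genes (0.00012). Kcnd2 measured 8.60, 9.43, 9.25, 8.82 and 9.43 against 10.12, 10.31, 10.17 and 10.41, also without overlap. Its log2 fold was -1.15 ± 0.39 (SE, adjusted p = 0.0492). Kcnd3 went the other way without overlap, at 9.40, 9.67, 9.15, 9.39 and 9.56 against 8.45, 8.54, 8.90 and 9.0, but its log2 fold of 0.71 ± 0.29 (SE) was not called (adjusted p = 0.122). Kcnip3, a further member of the Kcnip family, had a log2 fold of -0.14 ± 0.23 (SE, adjusted p = 0.861).

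Kcng4 encodes a modifier subunit that forms channels only together with pore-forming partners. It measured 6.09, 6.21, 6.46, 6.39 and 6.55 after MCAO and 7.66, 7.70, 6.86 and 7.64 after sham surgery, with no overlap. The log2 fold was -1.12 ± 0.37 (SE, adjusted p = 0.0458). Kcnq3, a subunit of the M-type channel, measured 8.70, 7.95, 9.01, 8.70 and 8.89 against 8.75, 9.72, 9.81 and 9.33. Sham array 1 lay among the MCAO arrays, and the log2 fold was -0.75 ± 0.21 (SE, adjusted p = 0.0136).

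**Figure D2:**
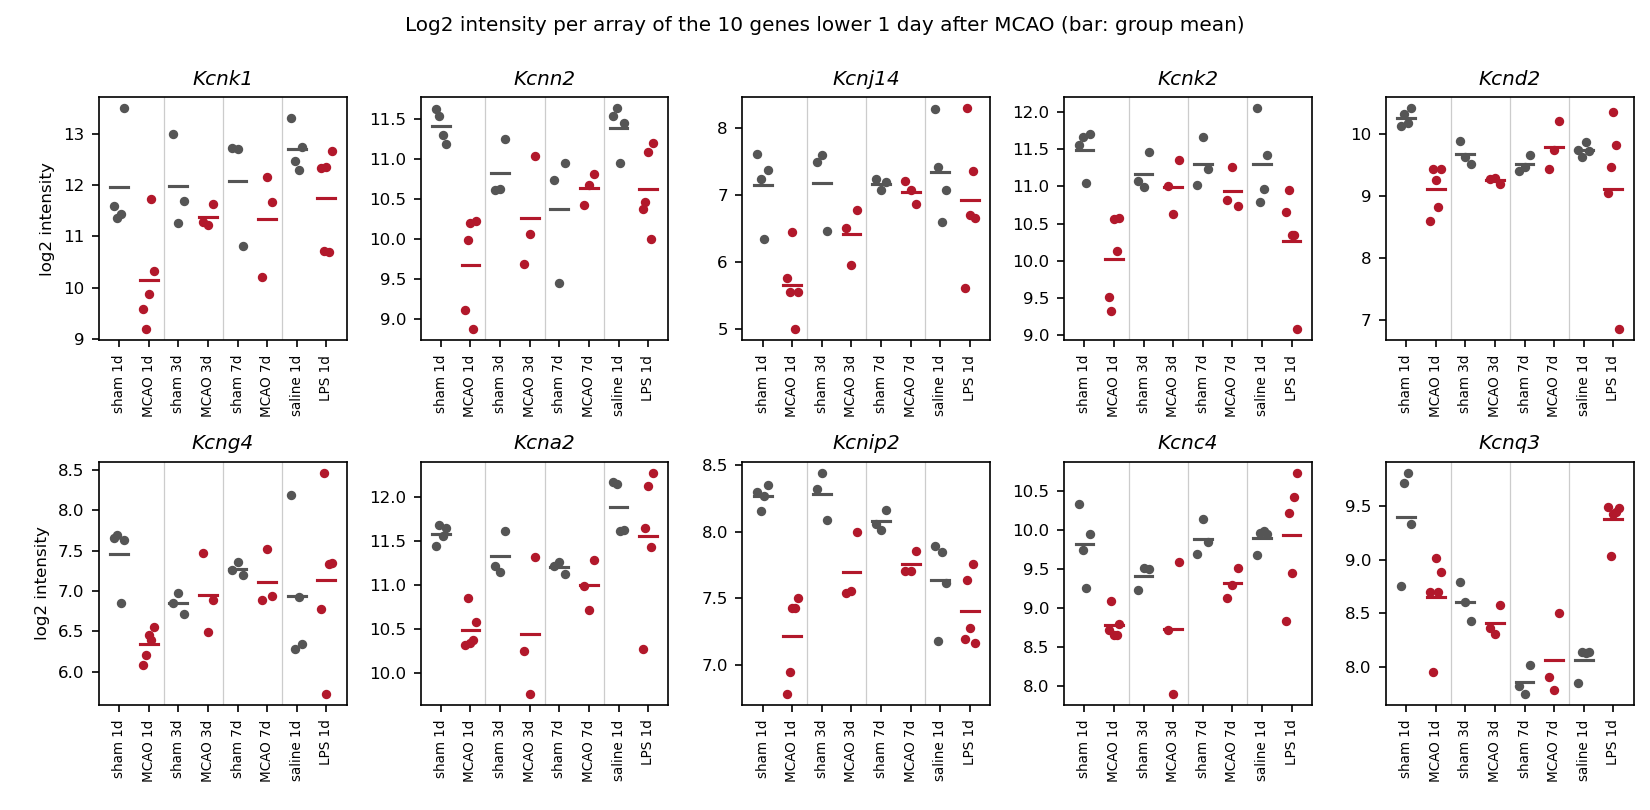
Log2 intensity on every array of the 10 genes that fell 1 day after MCAO, with control arrays in grey, injured arrays in red and a bar at each group mean. At 1 day the MCAO and sham points are apart for 7 genes and overlap for Kcnj14, Kcnk1 and Kcnq3.

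Not all 10 calls were equally firm. Kcnip2, Kcnn2, Kcnk2 and Kcna2 were called in each of the 9 fits that left out 1 array of the 1-day surgery groups, in which the number of called genes was 6 to 8. It was 6 without MCAO array 2, sham array 1 or sham array 4. The share of all genes called in these fits is not given here, so the counts describe the Kcn genes alone. Kcnd2 was lost in all 9 of these fits (adjusted p 0.0523 to 0.133). Kcng4 was lost in 8 of them, with adjusted p values up to 0.128, and was called only without sham array 3 (0.0288). Kcnk1 was lost without MCAO array 1 (adjusted p = 0.0741), 2 (0.0782) or 3 (0.0535) and without sham array 4, where its log2 fold was -1.31 (0.164). Kcnq3 was lost without MCAO array 2 (0.0516), sham array 2 (0.0706) or sham array 3 (0.0655), Kcnc4 without sham array 1 (0.104) or 4 (0.0646), and Kcnj14 without sham array 1 (0.0534).

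Each 1-day sham array shares a sample number in the labels' descriptions with an MCAO array. The labels do not state that such arrays are pairs, so the pairing was inferred. With that number as a block for those arrays, in the limma fit over all 30, 5 of the 71 genes were called, all lower. That was 7.04% of them, against 7.75% of all genes called in the same fit. They were Kcnip2 (log2 fold -0.94, adjusted p = 0.00162), Kcnn2 (-1.59, 0.00355), Kcnq3 (-0.77, 0.00508), Kcnk2 (-1.34, 0.0104) and Kcnj14 (-1.50, 0.0226). The other 5 kept their sign, with adjusted p values of 0.0566 for Kcna2, 0.0564 for Kcnc4, 0.0714 for Kcnk1, 0.142 for Kcng4 and 0.177 for Kcnd2. MCAO array 1, whose number no sham array carries, adds nothing to that fit. Kcnn2, Kcnk2 and Kcnip2 were thus called with the inferred pairing, without it and, in the unpaired fit, without any single array.

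Other probe sets of the same genes gave mixed values. Of the 10 genes, 6 had further probe sets above the filter, 8 in all, of which 6 had a log2 fold below 0 and 2 were called over all probe sets, 1 each for Kcna2 (-1.10, adjusted p = 0.00773) and Kcnc4 (-0.54, 0.0425). The dimmer probe set of Kcnip2 measured 0.10 (adjusted p = 0.891) at a mean log2 intensity of 5.41, and that of Kcnq3 measured -0.02 (0.99) at a mean of 5.34. With the mean of its probe sets, Kcnq3 had a log2 fold of -0.39 and was not called (0.0623). Among Kcn genes that were not called at 1 day, 28 had further probe sets above the filter, 46 in all, and 2 of these were called, both lower, against 9.5% of all 35730 probe sets above the filter. They belong to Kcnma1 (-1.28, adjusted p = 0.00356), the pore of the large-conductance calcium-activated channel, and to Kcnc1 (-0.72, 0.0102). The brightest probe set of Kcnma1, which stands for the gene here, had a log2 fold of -0.28 (adjusted p = 0.487 over all probe sets), and its other 3 had values of -0.80, -0.40 and -0.70, none of them called.

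Astrocyte markers were lower in sum as well. Their summed intensity was 125000 to 144000 after MCAO and 159000 to 172000 after sham surgery at 1 day, without overlap. Of the 11 markers, 2 were called lower and 10 had a log2 fold below 0, with a median of -0.31. Of all genes, 6.17% were called lower, and their median was -0.05. Oligodendrocyte markers summed to 13670 to 33690 against 17980 to 43530, with 2 of 10 called lower. Neuron markers summed to 2819 to 9481 against 3249 to 13270, with 0 of 12 called. Markers of microglia, at 906 to 1576 against 798 to 1554, of endothelial cells, at 1641 to 9619 against 2764 to 9585, of oligodendrocyte precursors, at 2922 to 5090 against 3281 to 4234, and of pericytes, at 3290 to 7313 against 5485 to 7926, overlapped between the groups. In each of these 4 lists 1 marker was called, Cd68 of 10 microglia markers (log2 fold 1.98, adjusted p = 9.14e-06), Vwf of 10 endothelial markers (1.57, 0.0395) and Tagln of 7 pericyte markers (1.53, 0.00891) as higher, and Cacng4 of 7 oligodendrocyte precursor markers (-1.12, 0.012) as lower. No marker list was at or near 0, and the part of other cells in the potassium channel values was not tested.

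Later after stroke, 0 of the 71 genes were called at 3 days, when 0.674% of all genes were, and 0 at 7 days, when 0.0254% were. At an unadjusted p under 0.05 limma gave 3 genes at each time, against 9.53% and 2.62% of all genes. At 3 days the arrays did not overlap for 6 genes, all lower, against 12.7% and, for lower alone, 6.94% of all genes. At 7 days they did not overlap for 14, of which 4 were lower, against 16.3% and 6.68%. The medians over the 71 genes were -0.01 and -0.03.

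The 10 genes that had fallen at 1 day had higher log2 folds at the later times. At 3 days 9 of them still had a log2 fold below 0, with a median of -0.58 and a range of -0.88 to 0.10. At 7 days 7 were below 0, with a median of -0.18 and a range of -0.74 to 0.28. The difference between the effects was above 0 for all 10 at 3 days against 1 day (0.20 to 1.29) and at 7 days against 1 day (0.46 to 1.997). None of these differences was called, the smallest adjusted p being 0.655 and 0.0983. Both use the same 1-day values by which the 10 were chosen, which tilts them above 0. Over all 71 genes, 0 were called in either difference, against 0.00636% and 0.356% of all genes, and 4 and 12 had an unadjusted p under 0.05, against 5.99% and 8.6%.

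Kcnn2 had the lowest p among the differences in time. It measured 9.68, 10.06 and 11.03 after MCAO against 10.61, 10.62 and 11.24 at 3 days, and 10.42, 10.67 and 10.81 against 10.73, 9.44 and 10.94 at 7 days. Its groups overlapped at both times, and the effect at 7 days exceeded that at 1 day by 1.997 ± 0.51 (SE, adjusted p = 0.0983). The same difference was 0.96 for Kcnq3 (adjusted p = 0.272) and 1.27 for Kcnmb4 (0.248).

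Kcnip2 was lower on every MCAO array than on every sham array at each time. At 3 days it measured 7.54, 7.55 and 7.99 against 8.32, 8.44 and 8.09, and at 7 days 7.70, 7.70 and 7.86 against 8.06, 8.01 and 8.16. The log2 folds were -0.59 ± 0.21 at 3 days (SE, adjusted p = 0.246) and -0.32 ± 0.21 at 7 days (adjusted p = 1), so neither was called. At 3 days Kcna2 was called lower (-1.32, adjusted p = 0.033) and Kcnn4, a calcium-activated channel of intermediate conductance, higher (0.95, 0.0185) once MCAO array 3 was left out. MCAO array 3 is also the only MCAO array of that day in the set of higher intensities. In the arrays of the lower set alone, Kcnip2 (-0.84, adjusted p = 0.0409), Kcna2 (-1.17, 0.0293), Kcnc4 (-1.06, 0.0418) and Kcnj14 (-1.31, 0.0136) were called lower and Kcnn4 higher (1.14, 0.0121). That fit, chosen after seeing the data, compares a pair of MCAO with a pair of sham arrays.

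**Figure D3:**
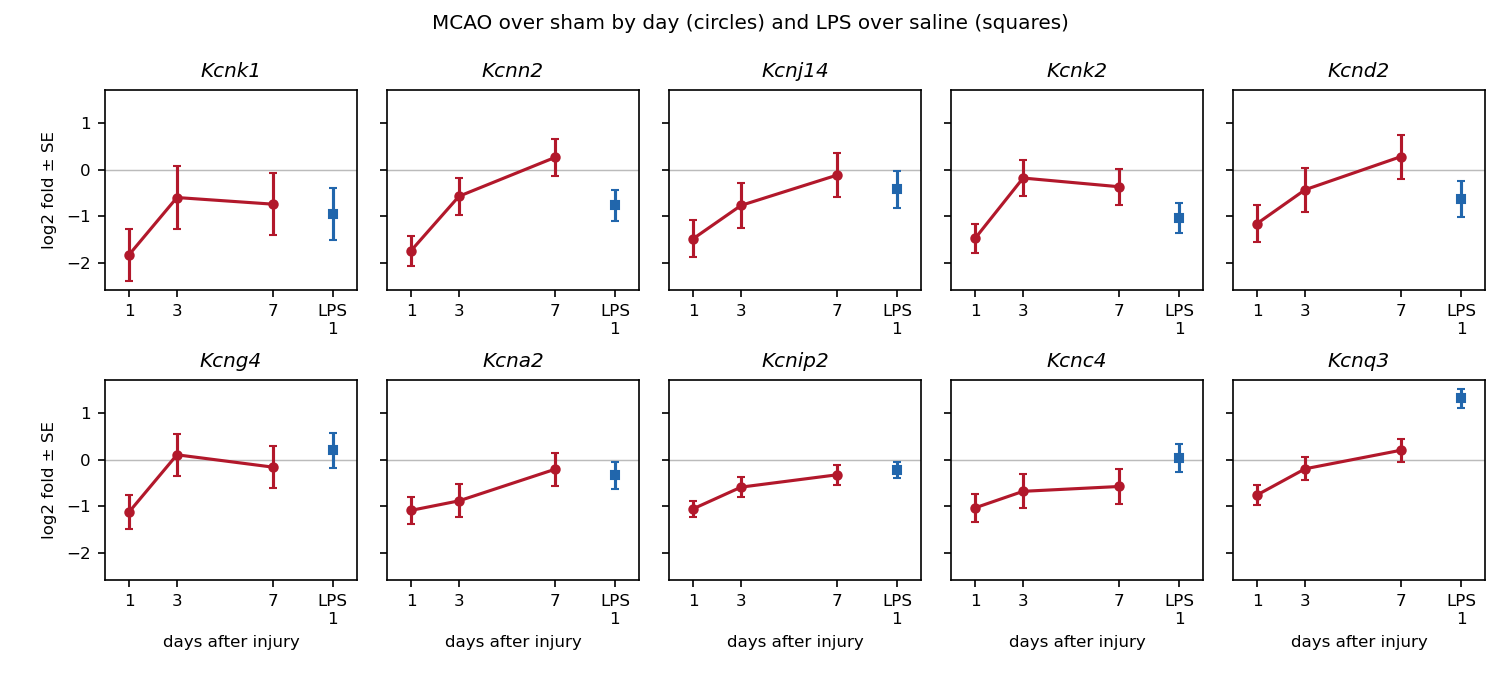
Log2 fold ± SE of MCAO over sham at 1, 3 and 7 days (red circles) and of LPS over saline at 1 day (blue squares) for the 10 genes that fell 1 day after MCAO. The 1-day circles lie between -1.82 and -0.75, the 7-day circles between -0.74 and 0.28, and the square of Kcnq3 lies at 1.31.

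At 7 days the lowest p values belonged to genes that were higher after MCAO. Kcne1l, an accessory subunit of the Kcne family, measured 9.51, 9.65 and 9.66 against 8.71, 8.21 and 8.47 (log2 fold 1.14 ± 0.39, SE, adjusted p = 0.919). Kcnmb4, a beta subunit of the large-conductance calcium-activated channel, measured 7.60, 8.06 and 7.51 against 6.75, 6.52 and 6.92 (0.99 ± 0.32, adjusted p = 0.73). Kcnd3 measured 8.49, 8.97 and 9.14 against 7.79, 7.87 and 7.93 (1.00 ± 0.36, adjusted p = 1). In all 3 the groups did not overlap, and none was called with the pooled variance. With the 7-day arrays alone the adjusted p values were 0.0144 for Kcne1l, 0.0414 for Kcnmb4 and 0.038 for Kcnd3. The summed intensity of oligodendrocyte precursor markers was 5838 to 7075 after MCAO and 3148 to 4144 after sham surgery at 7 days, with no overlap. That of pericyte markers was 4071 to 4815 against 3320 to 3771, also apart. The part of these cells in the 7-day values was not tested.

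After LPS, 2 of the 71 genes rose and 0 fell, against 3.11% of all genes called and 2.37% called higher. The genes were Kcnq3 and Kcnip4, the latter kept by the filter only through its LPS arrays. The arrays of the groups did not overlap for 2 genes, Kcnq3 and Kcna1, against 2.75% of all genes, and 11 genes had an unadjusted p under 0.05, against 16.4%. The median log2 fold over the 71 genes was 0.14, with 50 above 0, and 0.07 over all genes. LPS array 5, the array that stood apart, set the sign of these medians. Without it they were -0.04 over the 71 genes, with 32 above 0, and -0.01 over all genes.

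Kcnq3 rose 2.48-fold. It measured 9.49, 9.04, 9.43, 9.45 and 9.49 on LPS arrays 1 to 5 and 7.85, 8.14, 8.13 and 8.14 on saline arrays 1 to 4. The lowest LPS array was well above the highest saline array, and the log2 fold was 1.31 ± 0.21 (SE, adjusted p = 0.000249). The value was 1.33 in the set of arrays with lower intensities (adjusted p = 0.0285) and 1.32 in the other set (0.0566), and 1.29 without LPS array 5 (0.000523). Its dimmer probe set had a log2 fold of 0.48 (adjusted p = 0.103).

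On the probe set used, Kcnq3 responded differently to the injuries. The MCAO effect minus the LPS effect at 1 day was -2.07 ± 0.29 (SE, adjusted p = 0.000223 by limma), and it was the only one of the 71 genes called in this difference, against 1.39% of all genes. At an unadjusted p under 0.05 there were 11, against 12.8%. On the dimmer probe set of Kcnq3 the difference was -0.50, and the call was lost in 1 of 15 other settings. The control groups stood apart as well. Sham arrays at 1 day measured 8.75 to 9.81, about the level of the LPS arrays, and saline arrays 7.85 to 8.14, below all but 1 of the 1-day MCAO arrays. Sham arrays measured 8.43 to 8.79 at 3 days and 7.75 to 8.02 at 7 days. The summed intensity of endothelial markers was also higher at 1 day after surgery, at 2764 to 9585 in sham against 492 to 801 in saline arrays. Oligodendrocyte markers, at 17980 to 43530 against 12400 to 17550, and astrocyte markers, at 159000 to 172000 against 104300 to 158800, were higher without overlap as well. Neuron markers summed to 3249 to 13270 against 1770 to 5635, with overlap. The sums of the other lists overlapped too. In LPS arrays the endothelial and neuron sums were 621 to 1467 and 1256 to 5345, and both overlapped those of the saline arrays. Oligodendrocyte and astrocyte sums of the LPS arrays overlapped those of the saline arrays as well. Whether other cells add to the Kcnq3 signal was not tested.

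Kcnip4, an accessory subunit related to Kcnip2, was close to the detection floor. It measured 4.91, 4.70, 6.51, 4.86 and 6.13 after LPS and 4.39, 4.70, 4.39 and 4.32 after saline. All saline arrays were under the log2 floor of 5, and of the LPS arrays 3 and 5 alone were above it. Outside the LPS group only sham array 3 of 1 day (5.17) and MCAO array 2 of 7 days (5) reached the floor. Kcnip4 thus passed the filter of at least 3 arrays only through the group in which it was called higher. Its call is therefore not independent of the filter. The log2 fold was 0.97 ± 0.27 (SE, adjusted p = 0.0414). The call was lost without LPS array 3 (adjusted p = 0.0647) or 5 (0.0857) and without saline array 1 (0.0692), 2 (0.0573), 3 (0.0899) or 4 (0.125).

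Kcnk2 and Kcnc1 were lower after LPS without being called. Kcnk2 measured 10.65, 10.94, 10.34, 10.34 and 9.08 against 12.05, 10.79, 10.96 and 11.42, with LPS array 2 above saline array 2. Its log2 fold was -1.03 ± 0.31 (SE, adjusted p = 0.071), and it was called without LPS array 2 (-1.20, 0.0379). Kcnc1, a fast delayed rectifier subunit, measured 7.29, 6.85, 7.07, 7.45 and 6.43 against 7.25, 7.58, 7.88 and 7.63. Its log2 fold was -0.57 ± 0.19 (SE, adjusted p = 0.11), and it was called without LPS array 4 (-0.68, 0.0407). LPS array 5 was the lowest LPS array for both genes. Without it the log2 fold was -0.73 for Kcnk2 (adjusted p = 0.146 by limma) and -0.42 for Kcnc1. Over the fits that left out 1 array, the adjusted p of Kcnc1 ran from 0.0407 to 0.27.

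The genes that fell after stroke did not all point one way after LPS. Of the 10, 7 had a log2 fold below 0 after LPS, with a median of -0.38 and a range of -1.03 to 1.31. Kcnk2, Kcnk1, Kcnn2 and Kcnd2 had values of -1.03, -0.95, -0.76 and -0.63, Kcnc4 0.04 and Kcng4 0.20, none of them called. Without LPS array 5, 8 of the 10 were below 0, with a median of -0.26, and Kcnd2 had a log2 fold of -0.07 (adjusted p = 0.92). Its further probe sets above the filter had log2 folds of 0.46 (adjusted p = 0.417) and 0.34 (0.647) over all arrays. The difference between the effects of MCAO and LPS was -0.44 ± 0.44 for Kcnk2 (SE, adjusted p = 0.761) and -0.87 ± 0.78 for Kcnk1 (adjusted p = 0.718). Differences with an unadjusted p under 0.01 that were not called were those of Kcnt1 (-1.41, adjusted p = 0.111), Kcnip4 (-1.08, 0.164), Kcng2 (-0.98, 0.131), Kcnip2 (-0.82, 0.0927) and Kcnd1 (-0.76, 0.0843). Kcnd1 and Kcng2, both lower on every MCAO than on every sham array, had mean log2 intensities of 7.66 and 6.04 after MCAO, 8.05 and 6.55 after sham surgery, 8.48 and 6.37 after LPS and 8.11 and 5.91 after saline. Without LPS array 3, Kcnd1 (-0.87, adjusted p = 0.0218), Kcng2 (-1.21, 0.0121) and Kcng4 (-1.67, 0.0451) were called in this difference, and without LPS array 5, Kcnd1 (-0.60, 0.0491), Kcnd2 (-1.09, 0.0426) and Kcnip2 (-0.88, 0.0417).

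**Figure D4:**
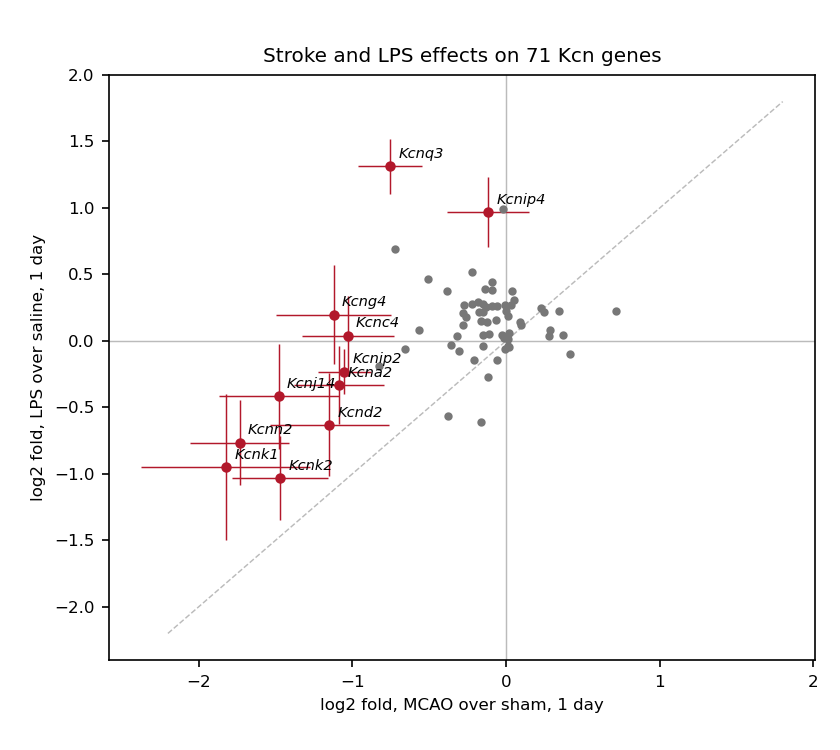
Log2 fold of MCAO over sham (horizontal) against that of LPS over saline (vertical) at 1 day for the 71 genes, with ± SE bars and names for the 10 called after MCAO and for Kcnip4, and a dashed line of equal effects. Kcnq3 is the named gene to the left of 0 that lies above 1, at -0.75 and 1.31.

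Partners of these channels were described from a list of 32 genes for potassium pumps, cotransporters and channel-associated proteins, of which 23 were measured. One day after MCAO, 1 of the 23 fell and 1 rose, when 6.17% of all genes were called lower and 6.49% higher. Amigo1, an auxiliary protein of voltage-gated channels, had a log2 fold of -1.13 ± 0.31 (SE, adjusted p = 0.0142), and Dlg1, a scaffold that anchors channels at the membrane, one of 0.89 ± 0.22 (adjusted p = 0.00735). The median was -0.20, against -0.05 over all genes. Kcnj10 and Kcnj16 had log2 folds of -0.27 (adjusted p = 0.335) and -0.26 (0.824). At 3 and 7 days 0 of the 23 were called, against 0.674% and 0.0254% of all genes. Their medians were -0.06 and 0.05, against 0.01 and -0.01 over all genes. After LPS 1 rose and 0 fell, when 2.37% of all genes were called higher and 0.744% lower. The median was -0.04 over the 23 and 0.07 over all genes. The gene that rose was that of the potassium-chloride cotransporter Slc12a7, with a log2 fold of 1.30 ± 0.29 (SE, adjusted p = 0.0104).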

How the data were processed

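Gene expression was measured on 30 Affymetrix arrays of sorted astrocytes in 8 groups. Linear intensities were deposited, 1 for each probe set on each array, which the authors had made with RMA per the submitters' processing notes (version not stated); the log2 was taken here. Of 45037 probe sets, 34945 carried 1 gene symbol in the platform annotation, 932 several and 9160 none, and the 71 Kcn genes kept matched RefSeq gene identifiers with 0 changed symbols. Of these, 42 had more than 1 probe set.

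Tests used R 4.3.3 and limma 3.58.1, with 1 linear model and a mean per group (22 residual and 4.55 prior degrees of freedom), 2-sided. MCAO was set against same-day sham arrays and LPS against saline, and differences between effects were interaction contrasts. The number of arrays limits the precision.

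Genes named were the called ones, the 10 brightest in control arrays, those with an unadjusted p under 0.01, and called partners. Kcna1, Kcnma1, Kcnn1, Kcnn4, the called markers and the genes gained when arrays were left out were named after their values were seen. The genes and lists were chosen with earlier results of these data known. Description numbers were taken to pair the 1-day surgery arrays, with correlations of deviations of 0.234, 0.191, 0.5 and 0.164. They were not so taken at 3 days (0.185, 0.0274 and 0.208) or 7 days (0.375, 0.309 and 0.00423). These correlations overlap between days, so they do not settle which arrays are pairs. LPS and saline share a single number. Alternatives covered normalisation, filters, probe sets, variance models, array weights, arrays used, pairing and threshold. The fit was checked on simulated data.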

Additional observations from a re-analysis of the deposited data

Results flagged for a closer look

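Single arrays stood apart from their group for 3 of the genes named, among 28 groups of 4 or 5 arrays examined, where chance alone marks about 1 group in 20. Kcnk1 measured 13.49 on sham array 4 at 1 day, the nearest other sham array being 11.60, and without that array its 1-day fold was not called. Kcng4 measured 6.86 on sham array 3, the nearest being 7.64, and Kcng4 is the gene whose call held only without that array. Kcnq3 measured 9.04 on LPS array 2, the nearest being 9.43, and 7.85 on saline array 1, the nearest being 8.13. The effects of stroke and LPS on Kcnq3 differed by -2.07 on the log2 scale in the interaction test, on the probe set used.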

How the results depend on the processing

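Array weights gave 22 called genes at 1 day (5 higher, 17 lower), 4 at 3 days, 5 at 7 days, 9 for MCAO against LPS, 1 for 3 against 1 day and 17 for 7 against 1 day. Of all genes these weights called 39.2%, 12.3%, 3.34%, 13.5%, 1.65% and 20% in the same order, against 31%, 5.63%, 7.04%, 12.7%, 1.41% and 23.9% of the 71. Fits on the compared groups alone gave 18 at 1 day (3 higher, 15 lower), 3 at 7 days, 1 after LPS and 11 for 7 against 1 day, with 32.9%, 1.3%, 0.413% and 9.77% of all genes. An adjusted p under 0.01 left 3 at 1 day and 1 after LPS, with 6.97% and 1.25% of all genes. After LPS, 1 was also left by median centring, by a filter at log2 6 and by the mean of probe sets, for which no share of all genes is given. The arrays of lower highest intensity alone left 1 after LPS and those above 30000 alone left 0, with 0.744% and 2.34% of all genes. The former gave 5 at 3 days, with 5.51% of all genes. This split of arrays as a covariate, also chosen after seeing the data, gave 3 for MCAO against LPS, with 2.52% of all genes.

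With the description number as a replicate block in all arrays, 17 genes were called at 1 day (2 higher, 15 lower), 1 at 3 days, 11 after LPS, which rests on the single shared number, 3 for MCAO against LPS and 5 for 7 against 1 day, with 27.5%, 5.49%, 11.6%, 4.11% and 3.75% of all genes. With the block for the 1-day surgery arrays only it was 5 at 1 day. The title's replicate number as a block gave 1 after LPS, 2 for MCAO against LPS and 1 for 7 against 1 day. Of all genes, 3.45%, 2.05% and 0.502% were called there in the same order. Leaving out each array in turn gave 6 to 8 genes at 1 day, 0 to 2 at 3 days, 0 to 0 at 7 days, 1 to 3 after LPS, 1 to 4 for MCAO against LPS, and 0 to 0 for both differences in time. No share of all genes is given for the fits that left out an array. Their counts cannot be weighed against the change over the whole array. The sign was opposite on other probe sets of Kcna2 (0.19) and Kcnip2 (0.10) at 1 day, Kcnip2 at 3 days (0.16), Kcnd3 at 7 days (-0.18) and Kcnc1 after LPS (0.021), and for Kcnc1 after LPS with the description number as a block (0.047); none of these 6 values was called. Of 379 further values of 27 named results, 315 kept their side of the threshold and direction, 35 lost and 23 gained a call, and those 6 changed sign. The cause of these changes was not tested.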

Other observations

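The group medians of some genes differed more between days than between MCAO and sham, a pattern chosen after their values were seen. The median log2 intensity of Kcne1l was 6.07 after MCAO and 6.32 after sham surgery at 1 day, 8.87 and 8.60 at 3 days, and 9.65 and 8.47 at 7 days, against 6.32 after LPS and 7.05 after saline. Within the set of arrays with higher intensities Kcne1l ran from 5.61 to 8.06 on the 14 arrays of 1 day and was 8.79 and 8.87 on the 2 arrays of 3 days. Within the lower set it ran from 5.91 to 6.93 on 4 arrays of 1 day, from 8.09 to 10.12 on 4 of 3 days and from 8.21 to 9.66 on the 6 of 7 days, all of which are in that set. Kcnj13, an inward rectifier of epithelia such as the choroid plexus, had medians of 5.39 and 6.09 at 1 day, 7.08 and 7.69 at 3 days and 7.11 and 7.31 at 7 days. Its highest array, at 10.40, was a 3-day sham array. Kcnj13 spread widely within groups, from 6.43 to 10.40 in sham arrays at 3 days and from 5.81 to 9.41 at 7 days. Within the higher set its 2 arrays of 3 days, at 6.43 and 7.08, lay inside the range of the 1-day arrays, 4.95 to 8.38. Folr1, a gene of the choroid plexus, had medians of 6.13 and 6.07 at 1 day, 7.29 and 7.28 at 3 days and 6.23 and 6.30 at 7 days. Kl had medians of 4.81 and 5.02, 6.95 and 6.70, and 5.88 and 6.09 at the same times, and Clic6 medians of 7.34 and 7.87, 8.59 and 8.34, and 8.03 and 8.34. Ttr, a further choroid plexus gene, had medians of 14.51 and 13.38, 14.52 and 14.40, and 13.49 and 13.54, and spread from 5.73 to 14.58 within the 1-day MCAO group. The part of choroid plexus cells in the Kcnj13 values was not tested.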
